A study of Rattus norvegicus with 9 samples.

Results

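The 9 genes described here are the oestrogen receptors, the oestrogen-related receptors and the steroid enzymes of the rat dorsal root ganglion (DRG), taken by gene symbol out of 20194 genes in the expression table. They comprise Gper1, which encodes the G protein-coupled oestrogen receptor GPER; Esr1 and Esr2, which encode ERα and ERβ; the oestrogen-related receptor genes Esrra and Esrrg; and the enzyme genes Hsd17b4, Hsd17b12, Sts and Srd5a1. RNA-Seq had been run on DRG tissue of adult male Sprague Dawley rats in 3 groups of 3 libraries: sham, spared nerve injury (SNI) and SNI + G15. SNI cuts branches of the sciatic nerve and leaves one branch intact, and G15 is an antagonist of GPER. Intrathecal catheters were placed on day 5 of SNI, drugs were given in 2% DMSO, and the sham and SNI libraries are titled as controls of G15. The dose of G15 is not in the sample labels. The labels do not say whether each library came from 1 animal, and the 3 SNI + G15 titles carry one shared SNI number, so p-values measure only the spread between these libraries, which may be technical.

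Oestrogen acts through 2 kinds of receptor. ERα and ERβ are nuclear receptors that bind DNA as dimers, whereas GPER sits in membranes and couples to G proteins, adenylyl cyclase and growth factor receptor signalling. The oestrogen-related receptors resemble ERα in sequence but bind no oestrogen; with the coactivator PGC-1α they drive genes of mitochondrial energy metabolism. Steroid sulphatase frees steroids from their sulphate store, 17β-hydroxysteroid dehydrogenases interconvert weak and strong oestrogens and androgens, and 5α-reductase reduces testosterone and progesterone, the latter on the way to neurosteroids in nerve tissue.

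Transcripts of the 3 oestrogen receptors were measured by PCR in the study with the primers below, shown because the sequencing values of the same transcripts follow.
Gper1 forward: caagcagtctttccgtcatgc
Gper1 reverse: ctgctccgtgctgtctggtat
Esr1 forward: agatctttgacatgttgctggc
Esr1 reverse: ctcggtggatgtggtccttc
Esr2 forward: tgcagctcaacagaggacagt
Esr2 reverse: tagaacttggcattcggtgg

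Promoter windows, 250 bases before to 50 after a start site, were taken from RefSeq (GRCr8) for 8 of the 9 genes, Esrrg having 4 windows, which makes 11 in all. The windows below belong to the 2 oestrogen-related receptor genes, whose levels differed from sham in both injured groups, and to Sts. Capitals mark the half-site AGGTCA, read on either strand, to which oestrogen and oestrogen-related receptors bind. The Esrra window lies on the minus strand at chr1:213543256-213543555, the Esrrg window on the plus strand at chr13:101755510-101755809 and the Sts window on the plus strand at chrX:46102510-46102809.
Esrra: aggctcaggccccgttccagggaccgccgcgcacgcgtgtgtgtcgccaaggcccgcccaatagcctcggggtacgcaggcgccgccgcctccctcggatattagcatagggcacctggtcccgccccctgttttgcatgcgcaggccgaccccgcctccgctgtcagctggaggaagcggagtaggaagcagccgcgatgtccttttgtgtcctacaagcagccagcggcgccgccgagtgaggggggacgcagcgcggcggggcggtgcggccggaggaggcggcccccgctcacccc
Esrrg: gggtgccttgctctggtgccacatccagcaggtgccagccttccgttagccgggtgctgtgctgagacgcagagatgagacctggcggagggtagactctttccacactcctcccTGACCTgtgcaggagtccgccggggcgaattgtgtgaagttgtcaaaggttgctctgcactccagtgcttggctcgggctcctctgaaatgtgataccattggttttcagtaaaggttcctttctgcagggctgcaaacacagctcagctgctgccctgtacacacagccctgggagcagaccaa
Sts: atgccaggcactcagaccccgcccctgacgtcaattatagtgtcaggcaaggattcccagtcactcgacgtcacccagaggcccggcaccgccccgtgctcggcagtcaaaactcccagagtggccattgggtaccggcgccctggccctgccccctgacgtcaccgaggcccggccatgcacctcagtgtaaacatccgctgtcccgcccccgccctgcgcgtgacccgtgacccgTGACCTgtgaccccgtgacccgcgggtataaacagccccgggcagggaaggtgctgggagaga

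The half-site was found in 3 of the 11 windows, namely 1 of the 4 Esrrg windows, Sts and Hsd17b4, and in 16.2% of all 33469 promoters of that length. In the Esrrg window it lay 135 to 130 bases before the start, and in the Sts window 13 to 8 bases before it. The longer oestrogen-related receptor element TCAAGGTCA, which contains the half-site, was in 0.433% of all promoters, and the palindromic oestrogen response element in 0.0269%; the letters of neither were in the 11 windows. The Esrra window was rich in G and C, at 72.0% against a median of 51.7% over all promoters. A match of letters is a description and not a bound site.

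Every library held between 18484557 and 18756736 estimated reads on genes. The labels' extraction text names another cell type, but the neuron markers summed to 11040 FPKM or more in each library, and all 10 were detected. FPKM is a fragment count scaled by transcript length and library size. The injury labels were checked with Atf3 and Gal, induced in axotomised neurons: mean FPKM was 3.95 (sham) and 141.0 (SNI) for Atf3, and 9.44 and 261.0 for Gal (log2 fold changes 5.12 and 4.76, edgeR adjusted p = 3.97e-12 and 4.13e-11). The SNI + G15 means were 136.0 and 225.0.

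The 9 genes spanned a wide range of levels. In sham the order of mean FPKM was Hsd17b12 (54.98), Hsd17b4 (28.95), Esrra (21.15), Srd5a1 (13.89), Sts (7.11), Esrrg (6.48), Gper1 (0.68), Esr1 (0.61) and Esr2 (0.11). Neighbours in this order did not overlap between libraries, except Sts with Esrrg and Gper1 with Esr1. The step from Esrrg to Gper1 was 9.53-fold. In SNI the neighbours that overlapped were Esrra with Srd5a1 and Esr1 with Gper1, and in SNI + G15 they were Gper1 and Esr1. Gper1, Esr1 and Esr2 stayed below 1 FPKM in every library, so they were tested among genes counted at least once in the libraries compared, and the other 6 among the 14305 genes that reached 1 FPKM in at least 1 library.

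**Figure D1:**
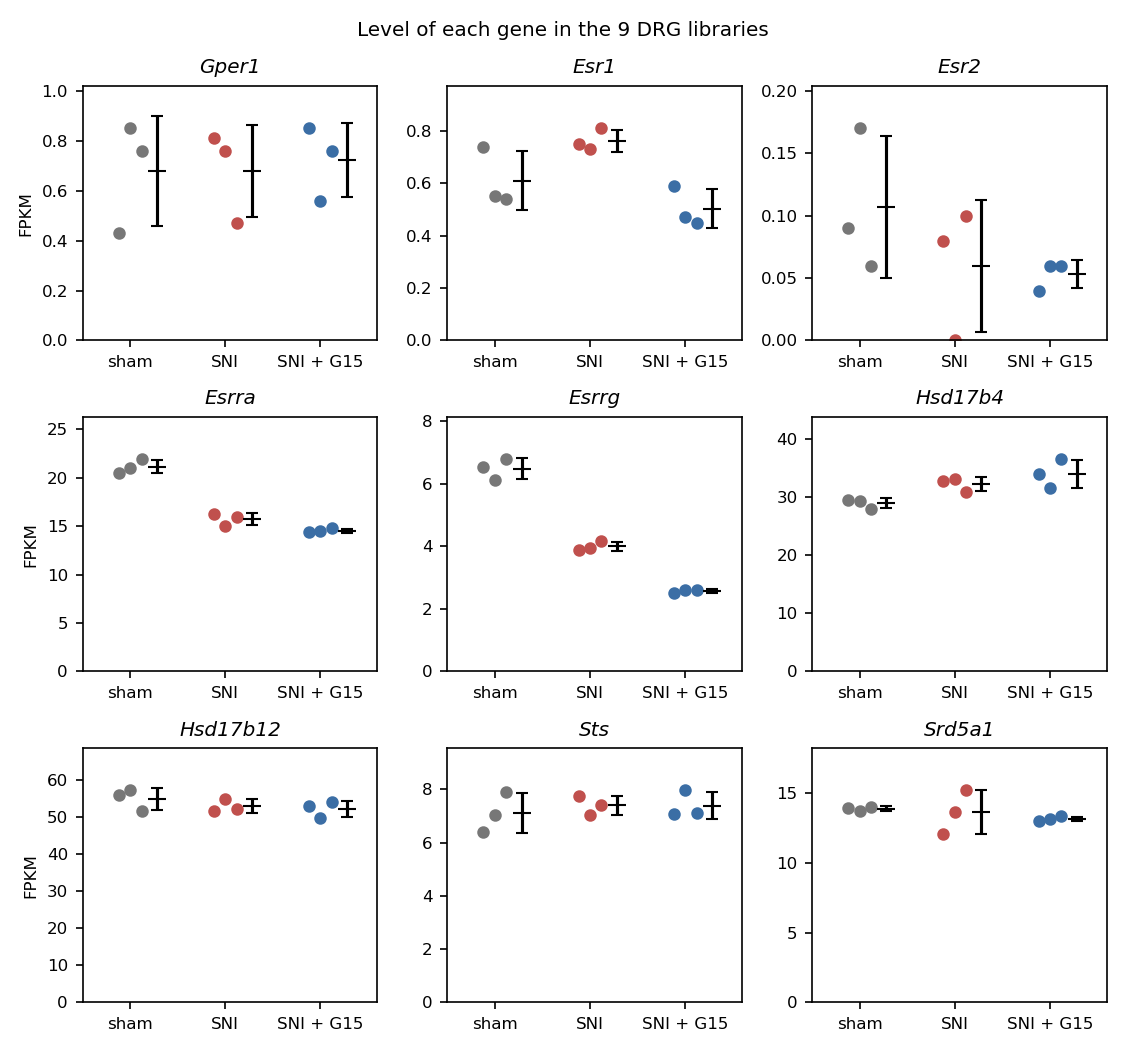
Level of each of the 9 genes in FPKM (linear axis from 0, scaled per gene), 1 point per library in sham, SNI and SNI + G15, with the group mean and SD (n = 3) beside the points. The Esrrg points form 3 separate steps, at 6.12 to 6.78, 3.87 to 4.17 and 2.51 to 2.61 FPKM, while the Gper1, Sts and Hsd17b12 points overlap in all groups.

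The first comparison asked whether nerve injury changes these genes. In SNI against sham, Esrra and Esrrg were lower and Hsd17b4 was slightly higher; these 3 of the 9 genes passed an adjusted p of 0.05. Over all genes tested, 45.7% of the 14305 genes above 1 FPKM and 34.0% of the 19823 genes with at least 1 count passed, so 3 of 9 is no more than the share of all genes. Members with groups that did not overlap were the same 3, beside 53.9% of the genes above 1 FPKM.

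The second comparison asked what G15 changes after injury. After G15, Esrrg and Esr1 were below their SNI level, and the other 7 genes did not pass. Of all genes, 15.2% passed among those above 1 FPKM and 9.63% of the 19855 with at least 1 count. The comparison of SNI + G15 with sham shares its libraries with the other comparisons, and there Esrra and Esrrg were lower and Hsd17b4 was higher, beside 43.2% of the genes above 1 FPKM and 32.5% of the 19789 with at least 1 count.

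**Figure D2:**
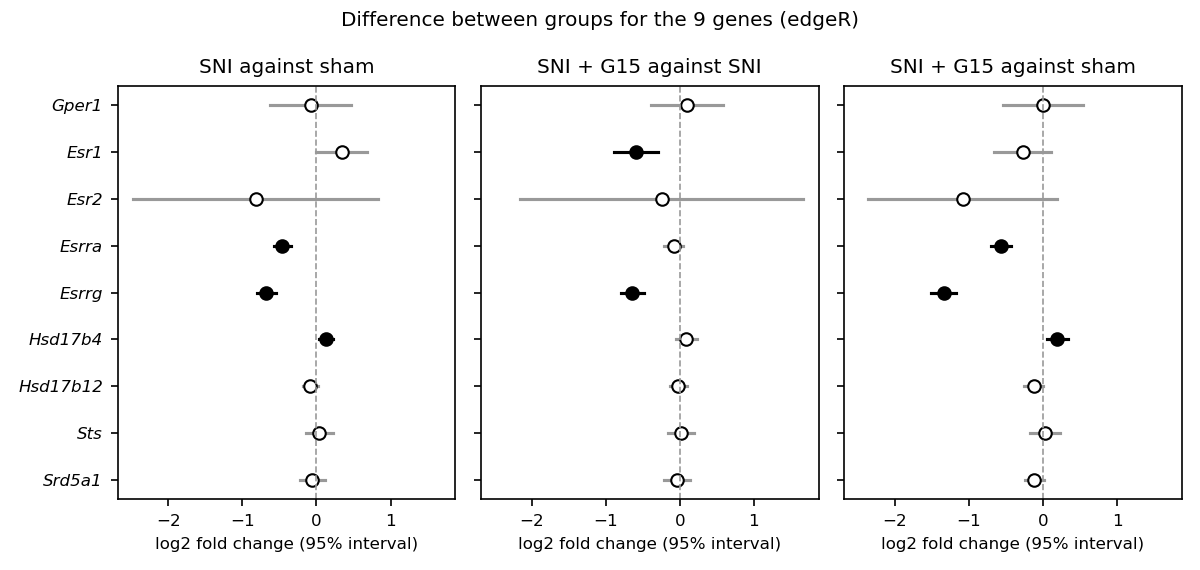
Log2 fold change of each gene with its 95% interval from edgeR in the 3 comparisons, filled where the adjusted p over all genes tested is below 0.05. Esrrg lies left of 0 in all 3 panels (-0.68, -0.64 and -1.34), and the interval of Gper1 includes 0 in each.

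Gper1 did not pass the test in any comparison. Its level was 0.43, 0.85 and 0.76 FPKM in the sham libraries, 0.81, 0.76 and 0.47 in SNI, and 0.85, 0.56 and 0.76 in SNI + G15. The SNI counts stepped down evenly, at 40, 33 and 27 reads. In FPKM, 1 low library in sham and 1 in SNI set the spread, and all groups overlapped. These levels rest on 24 to 41 reads a library, that is 103 reads over the sham group, 100 over SNI and 106 over SNI + G15, with exact Poisson intervals of 84.1 to 125, 81.4 to 122 and 86.8 to 128 that cover counting error only. The log2 fold change in SNI against sham was -0.08 (95% interval -0.63 to 0.47, edgeR adjusted p = 0.839), which spans a change of -35.2% to 38.4%. Its difference between SNI + G15 and SNI was 0.10 (-0.39 to 0.59, edgeR adjusted p = 0.816), and against sham -0.0039 (-0.54 to 0.54, edgeR adjusted p = 0.991). Differences inside those intervals remain compatible with these libraries, given their read numbers and their spread.

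Esr1, the gene of ERα, was lower in SNI + G15 than in SNI. It stood at 0.74, 0.55 and 0.54 FPKM in sham, at 0.75, 0.73 and 0.81 in SNI, and at 0.59, 0.47 and 0.45 in SNI + G15. Every SNI + G15 library was below every SNI library, and sham overlapped both. These 2 groups lay apart, in either direction, in 30.7% of all genes with at least 1 count. The counts behind these levels were 82 to 89 reads in SNI and 53 to 61 in SNI + G15. The log2 fold change of SNI + G15 against SNI was -0.59 (SE 0.132, 95% interval -0.89 to -0.30, edgeR adjusted p = 0.0221), a level 33.7% lower. That call was lost in 7 of 13 alternatives: DESeq2 gave an adjusted p of 0.0972, and leaving out SNI replicate 1, 2 or 3 or SNI + G15 replicate 2 gave 0.0626, 0.0814, 0.0925 and 0.0698. Against sham, the SNI difference was 0.34 (95% interval -0.0030 to 0.69, edgeR adjusted p = 0.121), and it passed without sham replicate 1 (0.51, edgeR adjusted p = 0.0274). The SNI + G15 difference from sham was -0.27 (-0.66 to 0.11, edgeR adjusted p = 0.27).

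Esr2, the gene of ERβ, was at the limit of detection. It was listed at 0.09, 0.17 and 0.06 FPKM in sham, 0.08, 0 and 0.10 in SNI, and 0.04, 0.06 and 0.06 in SNI + G15, from at most 10.74 estimated reads. The SNI replicate 2 library had a count of 0, which allows up to 0.161 CPM, counts scaled to library size alone. Its fold changes had wide intervals that all included 0, such as -2.48 to 0.84 on the log2 scale for SNI against sham (edgeR adjusted p = 0.441) and -2.16 to 1.67 for SNI + G15 against SNI (edgeR adjusted p = 0.884). No direction can be given for Esr2 at this depth.

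At the transcript level, the oestrogen receptor reads did not fall evenly on the annotated transcripts, and these estimates divide shared reads. The curated Esr1 transcript for which the PCR primers are listed carried 0 to 18.5% of the gene's FPKM, and 1 predicted transcript carried at least 81.4% in every library. For Esr2 the transcript listed with the primers was at 0 in 8 of 9 libraries. For Gper1 it carried 29.8 to 59.7%, the rest lying on 1 predicted transcript. Whether the primers also amplify the predicted transcripts was not tested. Actb, the β-actin gene used as the reference of the PCR, rose by 0.19 on the log2 scale in SNI against sham (SE 0.0448, edgeR adjusted p = 0.00556), with a mean of 932.0 FPKM in sham and 1090.0 in SNI; its estimated counts were not whole in any library, so its reads were divided with other features.

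Esrrg encodes ERRγ, a constitutively active receptor of tissues with high energy use, and it gave the largest difference of the 9 genes among those that passed the test. The sham libraries were at 6.55, 6.12 and 6.78 FPKM, the SNI libraries at 3.87, 3.95 and 4.17, and the SNI + G15 libraries at 2.51, 2.61 and 2.61. The 3 groups were fully separate, with sham highest and SNI + G15 lowest, and the largest SD within a group was 0.34 FPKM. Among genes above 1 FPKM, SNI and sham lay apart, in either direction, in 53.9%. The shares were 38.3% for SNI + G15 and SNI, and 52.9% for SNI + G15 and sham. The share of genes with 3 separate groups was not counted. In SNI the level was 37.4% lower than in sham, a log2 fold change of -0.68 (SE 0.0602, edgeR adjusted p = 6.92e-06), and 10.3% of the genes tested had a larger one in size. In SNI + G15 it was a further 36.0% below SNI (-0.64, SE 0.0683, edgeR adjusted p = 0.000615), where 3.83% of genes had a larger one. Against sham the SNI + G15 libraries were 60.6% lower (-1.34, SE 0.0732, edgeR adjusted p = 5.94e-07). The call held in all 15 alternatives in each comparison. Of its 7 annotated transcripts, 1 predicted transcript carried 61.4 to 70.5% of the FPKM in sham and 63.1 to 88.1% in SNI. In SNI + G15 it carried 40.4 to 91.6%, and in replicate 3 another predicted transcript carried more, at 46.9%. The first was at 4.26 ± 0.51 FPKM in sham, 2.85 ± 0.48 in SNI and 1.74 ± 0.67 in SNI + G15 (SD, n = 3).

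Esrra encodes ERRα, the partner of PGC-1α in mitochondrial gene expression. It was at 20.52, 21.02 and 21.90 FPKM in sham, 16.24, 15.07 and 15.97 in SNI, and 14.39, 14.47 and 14.79 in SNI + G15. Both injured groups lay below every sham library, beside the shares of genes with separate groups given above for Esrrg. The log2 fold change was -0.46 in SNI (SE 0.0523, edgeR adjusted p = 4.09e-05) and -0.57 in SNI + G15 (SE 0.0591, edgeR adjusted p = 4.14e-05), which held in all 15 alternatives each. Between SNI + G15 and SNI the libraries did not overlap, as in 38.3% of genes above 1 FPKM, but the difference of -0.08 (95% interval -0.21 to 0.04) did not pass (edgeR adjusted p = 0.331).

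The group means of the 2 Esrra transcripts did not move together, though the sham and SNI libraries spread widely. The curated transcript was at 8.65 ± 2.56 FPKM in sham and 8.39 ± 2.38 in SNI, and at 4.17 ± 0.73 in SNI + G15 (SD, n = 3). The predicted one was at 12.5 ± 2.02, 7.37 ± 2.48 and 10.4 ± 0.52 FPKM. As a share of the gene, the curated transcript held 31.5 to 52.6% (sham), 38.9 to 68.8% (SNI) and 24.5 to 33.5% (SNI + G15), so SNI and SNI + G15 did not overlap. These shares were not tested, and how often transcript shares lie apart over all transcripts was not counted. The reads of Esrra and Esrrg were divided between features in 7 and 6 of the 9 libraries, whose estimated counts were not whole.

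The third gene of the family, Esrrb, which encodes ERRβ and is not among the 9, moved in the direction of the other two. It fell from 2.04 FPKM in sham to 1.05 in SNI (-0.90 on the log2 scale, SE 0.118, edgeR adjusted p = 0.000114) and stood at 0.82 in SNI + G15 (-1.27 against sham, edgeR adjusted p = 7.13e-06). Between SNI + G15 and SNI its difference of -0.34 did not pass (edgeR adjusted p = 0.137). The directions of all 3 genes against sham were the same with TMM, DESeq2 size factors and no scaling factors.

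Over the 9 libraries, Esrra was most like Isl1, a transcription factor of sensory neurons (Pearson r = 0.997 of log2 CPM), and Rab3a, a synaptic vesicle GTPase (0.996). Isl1 had means of 28.4, 22.7 and 21.3 FPKM in sham, SNI and SNI + G15, and Rab3a of 512.0, 362.0 and 337.0. Esrrg was most like Ntng1, an axon guidance gene (0.997, at 8.86, 6.53 and 4.74 FPKM), and Magee1 (0.995, at 43.8, 34.1 and 27.6). Such values are common here, because the libraries form 3 groups: 1135 genes had r above 0.9 with Esrra and 982 with Esrrg.

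Cell type markers moved in the same comparisons. In SNI against sham, 5 of 10 neuron markers were lower and 3 higher, with a median log2 fold change of -0.21. Their summed level was 11040 to 11300 FPKM in sham and 11380 to 11590 in SNI. That sum is weighted to abundant markers, of which Tubb3 rose from 2300 to 2990 FPKM and Nefh fell from 2180 to 1410. All 7 markers of myelinating Schwann cells were lower (5168 to 5284 against 2841 to 2898), and 7 of 8 macrophage markers were higher (85.2 to 93.9 against 194.9 to 214.9). Between SNI + G15 and SNI, neuron markers were higher in 1 and lower in 2 of 10 (sum 11620 to 12160 in SNI + G15), all 7 fibroblast markers were higher (451.3 to 453.5 against 610.2 to 632.6), and 6 of 7 Schwann cell markers were higher (3067 to 3182 in SNI + G15). The erythroid markers, such as the haemoglobin gene Hbb, rose and then fell: all 6 were higher in SNI than in sham (97.26 to 101.1 against 326.1 to 333.6 FPKM in sum, median log2 fold change 1.90), and with G15 all 6 lay below their SNI level (193.8 to 228.0, median -1.22), as Esr1 did. None of these markers was below 0.1 FPKM in all 9 libraries. In bulk tissue, fewer cells of a type and less RNA per cell cannot be told apart, and the part of these shifts in the Esrra, Esrrg and Esr1 differences was not tested.

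Of the enzymes, Hsd17b4 was the one whose level differed between groups. It encodes the peroxisomal multifunctional protein 2, which oxidises oestradiol and takes part in the β-oxidation of very-long-chain fatty acids. It was at 29.50, 29.41 and 27.95 FPKM in sham, 32.73, 33.22 and 30.98 in SNI, and 34.00, 31.61 and 36.52 in SNI + G15. All 6 injured libraries lay above the sham libraries, and SNI and SNI + G15 overlapped. Among genes above 1 FPKM, 53.9% lay apart from sham, in either direction, in SNI and 52.9% in SNI + G15. A change larger in size was seen in 62% of the genes tested for SNI against sham, and in 52.2% for SNI + G15 against sham. The log2 fold change was 0.13 in SNI against sham (SE 0.0447, edgeR adjusted p = 0.0371), that is 9.31% higher, and 0.20 in SNI + G15 against sham (SE 0.0653, edgeR adjusted p = 0.0348). Both calls were lost in 6 of 15 alternatives, where DESeq2 gave 0.0797 for the first; without sham replicate 3, SNI replicate 1 or SNI replicate 2 it was 0.0984, 0.122 and 0.134. For the second, adjusted p was 0.0738, 0.0658 and 0.111 without sham replicate 1, 2 and 3, and 0.0586 and 0.0602 without SNI + G15 replicate 1 and 3.

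Hsd17b12, a ketoacyl-CoA reductase of fatty acid elongation that also reduces oestrone, was the most abundant of the 9. Its level was 55.97, 57.27 and 51.69 FPKM in sham, 51.78, 55.08 and 52.18 in SNI, and 53.02, 49.75 and 54.06 in SNI + G15, and all groups overlapped. The intervals were narrow: -12.2% to 1.2% for SNI against sham and -8.73% to 6.84% for SNI + G15 against SNI (edgeR adjusted p = 0.158 and 0.831). While the gene's level overlapped between groups, its curated transcript took 53.0 to 64.8% of the FPKM (sham), 61.1 to 65.5% (SNI) and 68.8 to 75.1% (SNI + G15), so that the last group lay apart from both others. The predicted transcript was at 21.5 ± 2.43, 19.5 ± 0.73 and 14.8 ± 2.27 FPKM (SD, n = 3). These shares were not tested, and how often the shares of other transcripts lie apart in this way was not counted. At the gene level, SNI + G15 lay apart from SNI in 38.3% of genes above 1 FPKM, and from sham in 52.9%.

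**Figure D3:**
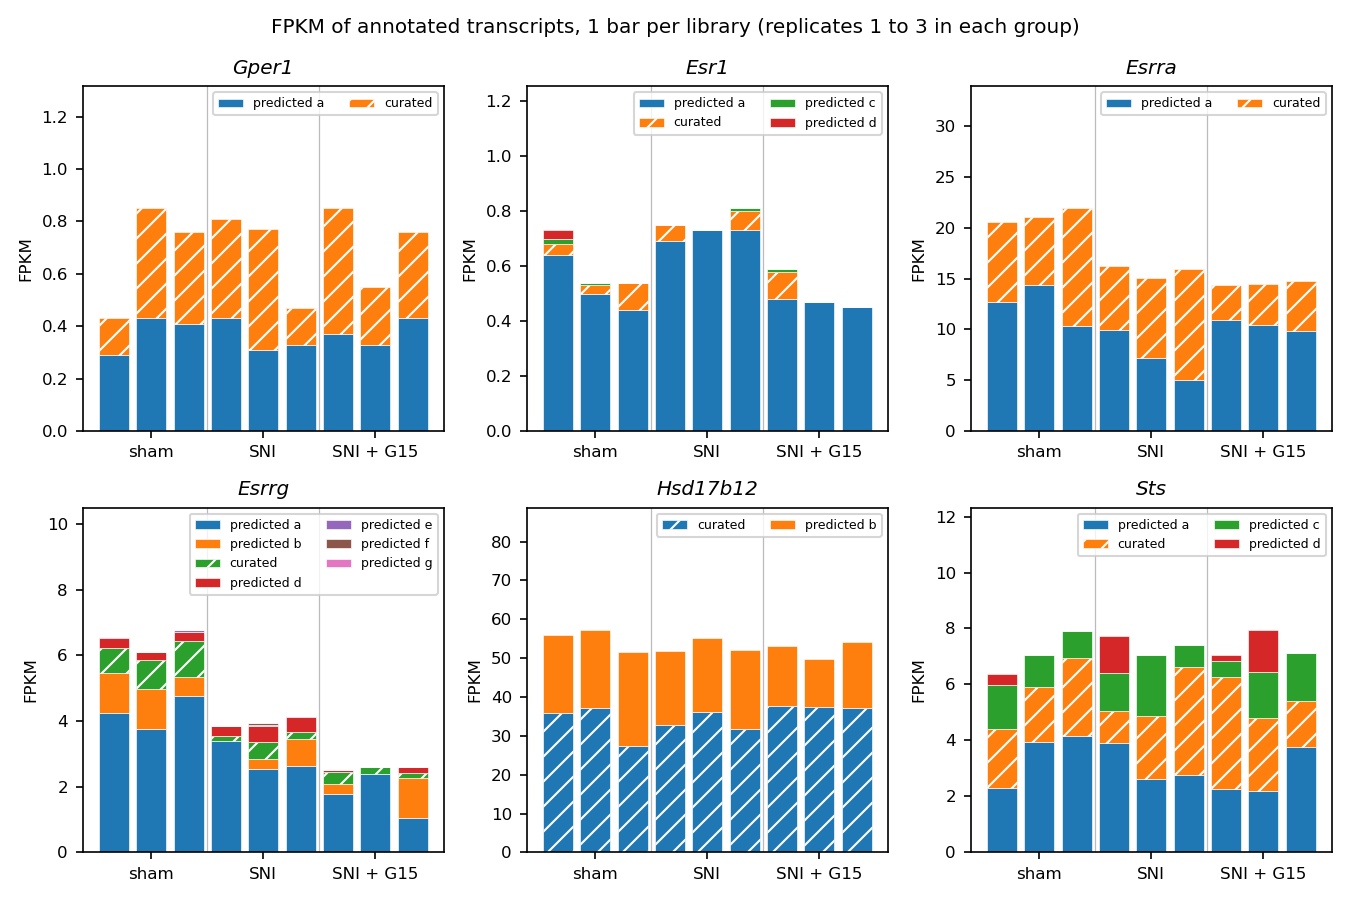
FPKM of the annotated transcripts of 6 of the genes, stacked in 1 bar per library (replicates 1 to 3 of sham, SNI and SNI + G15 from left to right), with the curated RefSeq transcript hatched and predicted ones plain. Nearly all of Esr1 is 1 predicted transcript, the hatched part of Esrra is smallest in SNI + G15 at 24.5 to 33.5%, and that of Hsd17b12 is largest there at 68.8 to 75.1%.

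Sts, the steroid sulphatase gene, was at 6.38, 7.05 and 7.91 FPKM in sham, 7.75, 7.04 and 7.40 in SNI, and 7.07, 7.96 and 7.12 in SNI + G15. The groups overlapped in each comparison, and the sham libraries had the widest spread. The difference between SNI and sham was 2.77% (95% interval -9.15% to 16.3%, edgeR adjusted p = 0.719), and between SNI + G15 and SNI 0.773% (-10.7% to 13.8%, edgeR adjusted p = 0.935). Its 4 transcripts varied between libraries within each group, the curated one from 15.0 to 52.2% of the gene in SNI.

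Srd5a1, the 5α-reductase 1 gene, was at 13.93, 13.71 and 14.04 FPKM in sham, 12.09, 13.68 and 15.21 in SNI, and 13.05, 13.14 and 13.34 in SNI + G15. The SNI libraries spread around the others, with an SD of 1.56 FPKM against 0.17 and 0.15. Every SNI + G15 library was below the sham libraries, beside 52.9% of genes above 1 FPKM whose groups did not overlap in either direction, but the difference of -7.66% did not pass (95% interval -15.6% to 1.06%, edgeR adjusted p = 0.14). For SNI against sham the interval was -14.0% to 7.9%, and for SNI + G15 against SNI -14.0% to 10.4% (edgeR adjusted p = 0.58 and 0.776). The genes most like the enzymes in pattern were Lsm14a and Ppm1g for Hsd17b4 (r = 0.979 and 0.971), Ublcp1 and Dld for Hsd17b12 (0.959 and 0.957), Siah2 and Ccdc92 for Sts (0.896 and 0.888), and Arl14ep and Nt5dc1 for Srd5a1 (0.869 and 0.865). All are over 9 libraries in 3 groups and are given as descriptions.

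Around the receptors, genes for other steroid hormone receptors were mostly lower after SNI. Of 11 tested, 7 fell and 1 rose against sham, beside 22.4% of all genes lower and 23.3% higher, with a median log2 fold change of -0.36 beside 0.0010 over all genes. Besides Esrrb, the membrane progesterone receptor genes Paqr8 and Paqr9 fell by 0.36 and 0.45 on the log2 scale (edgeR adjusted p = 6.69e-05 and 8.3e-05). None of the 11 passed between SNI + G15 and SNI, beside 15.2% of all genes, and 8 were lower in SNI + G15 than in sham, beside 21.9%. Of 17 coregulators and chaperones, 2 rose and 2 fell in SNI, which is 23.5% called and below the 45.7% of all genes. Nrip1, a corepressor bound by ligand-activated ERα, rose by 0.95 (edgeR adjusted p = 2.62e-07), while the steroid receptor cochaperone genes Fkbp5 and Fkbp4 fell by 0.39 and 0.28 (edgeR adjusted p = 0.000126 and 0.000176). Fkbp5 rose by 0.42 in SNI + G15 against SNI (edgeR adjusted p = 0.00336), from a mean of 11.1 to 14.5 FPKM, with sham at 14.0.

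GPER signalling partners moved in both directions in SNI: 10 of 24 rose and 5 fell against sham, or 62.5% called beside 45.7% of all genes, with a median of 0.0105. Pik3ca, a catalytic subunit of phosphoinositide 3-kinase, rose by 0.71 on the log2 scale (edgeR adjusted p = 3.69e-06), and Mmp2, a matrix metalloproteinase, by 0.47 (edgeR adjusted p = 2.72e-05). Prkaca, a catalytic subunit of protein kinase A, fell by 0.37 (edgeR adjusted p = 5.34e-05). With G15, 2 rose and 4 fell against SNI, where 7.98% of all genes rose and 7.25% fell. Hbegf, whose product is the ligand that GPER signalling frees to act on the epidermal growth factor receptor, rose by 0.58 (edgeR adjusted p = 0.00134), from 7.68 to 11.4 FPKM, with sham at 9.09.

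Of 13 textbook oestrogen-induced genes, 9 rose and 3 fell in SNI against sham (median 0.38), where 23.3% of all genes rose and 22.4% fell. In SNI + G15 against SNI, 4 rose and 3 fell (median 0.12), where 7.98% of all genes rose and 7.25% fell. The 3 with the smallest adjusted p that rose were C3, a complement component (log2 fold change 2.62, edgeR adjusted p = 3.97e-10), Hspb1, a small heat shock protein (1.11, edgeR adjusted p = 7.91e-09) and Myc (1.09, edgeR adjusted p = 7.2e-06). These are also known as genes of inflammation, stress and growth. Wisp2, a matricellular protein gene, fell from 2.00 to 0.52 FPKM in SNI (-1.97, edgeR adjusted p = 9.07e-05) and was at 4.36 in SNI + G15 (3.08 against SNI, edgeR adjusted p = 3.66e-05), alongside the fibroblast markers given above. C3 was lower in SNI + G15 than in SNI by 0.50 (edgeR adjusted p = 0.00112), where 2 of the 8 macrophage markers were higher (213.4 to 227.9 FPKM in sum) and all 6 erythroid markers were lower. The part of those cells in either difference was not tested.

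Among 23 genes known as targets of the oestrogen-related receptors, most of them genes of mitochondrial energy metabolism, 14 were lower and 1 higher in SNI against sham (median -0.18), beside 22.4% of all genes called lower and 23.3% higher. Vegfa, an angiogenic growth factor gene and not a metabolic one, fell by 0.36 (edgeR adjusted p = 0.000143) and Idh3b, a subunit of isocitrate dehydrogenase, by 0.30 (edgeR adjusted p = 0.000418), while Cycs, the cytochrome c gene, rose by 0.27 (edgeR adjusted p = 0.00325). Where Esrrg was lower again, in SNI + G15 against SNI, Vegfa alone of the list was lower (-0.21, edgeR adjusted p = 0.0263) and 2 were higher, with a median of -0.0075, beside 7.25% of all genes lower and 7.98% higher. Against sham, 10 were lower in SNI + G15, beside 21.9% of all genes, and none was higher, beside 21.4%. One further gene of the list, Atp5pb, was listed at 0 in 8 of the 9 libraries and is counted among the 23; it is named because of these zeros.

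Of 9 genes of cholesterol import and steroid synthesis tested, 3 rose and 1 fell in SNI against sham, a share of 44.4% called, near the 45.7% of all genes, with a median of 0.16. Tspo, a cholesterol-binding protein of the outer mitochondrial membrane found at high levels in macrophages, rose from 9.01 to 24.6 FPKM (1.42 on the log2 scale, edgeR adjusted p = 1.54e-06), beside the macrophage markers given above. Hsd3b3, a 3β-hydroxysteroid dehydrogenase gene, had 0, 0 and 1 estimated reads in sham and 20.42 to 23.75 in SNI. Against a floor of 3 reads per library this was at least 7.26-fold higher in SNI and at least 11.6-fold in SNI + G15. Its mean was 0.01 FPKM in sham, 0.753 in SNI and 1.21 in SNI + G15, so only injured libraries brought it past the 1 FPKM filter. Its call, and its place among the 3 that rose, therefore depend on the groups where it was high. Its counts were not whole in 6 libraries, so reads were shared with other features and its identity within the Hsd3b family is uncertain.

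The list of other 17β-hydroxysteroid dehydrogenase genes, which also holds the partner gene Cbr4, had 8 tested. Of these 8, 1 rose and 3 fell in SNI, so 4 of 8 were called, near the 45.7% of all genes. Hsd17b8 rose by 0.66 (edgeR adjusted p = 8.16e-05), from 14.0 to 20.7 FPKM, and its partner in mitochondrial fatty acid synthesis, Cbr4, fell by 0.48 (edgeR adjusted p = 0.000441). Hsd17b10, a mitochondrial dehydrogenase, fell by 0.40 (edgeR adjusted p = 0.00122). In SNI + G15 against SNI, 1 of the 8 rose and 1 fell, beside 15.2% of all genes called. The one that rose was Hsd17b10, by 0.30 (edgeR adjusted p = 0.0383), a call lost in 4 of 15 alternatives. Its means were 62.3, 48.3 and 59.1 FPKM in sham, SNI and SNI + G15. Hsd17b7, which acts in cholesterol synthesis and on oestrone, fell by 0.32 in SNI + G15 against SNI (edgeR adjusted p = 0.00563).

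Among 13 genes of steroid reduction, sulphation and inactivation, 2 rose and 3 fell in SNI, or 38.5% called beside 45.7% of all genes. Cyp1b1, which hydroxylates oestradiol, rose by 1.11 (edgeR adjusted p = 2.82e-07). Sult1a1, a sulphotransferase gene, fell by 1.14 in SNI against sham (edgeR adjusted p = 2.53e-07) and rose by 0.63 in SNI + G15 against SNI (edgeR adjusted p = 0.000698), at 39.6, 18.3 and 28.1 FPKM in the 3 groups. Akr1c14, the 3α-hydroxysteroid dehydrogenase that follows 5α-reductase in neurosteroid synthesis, rose by 0.61 in SNI + G15 against SNI (edgeR adjusted p = 0.0158).

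The lists around Hsd17b4, Hsd17b12 and Sts were counted too, beside the same 45.7% of all genes called in SNI against sham. Of 19 peroxisomal β-oxidation genes, 2 rose and 5 fell (36.8% called). Abcd2, a transporter of very-long-chain acyl-CoA, fell by 0.61 (edgeR adjusted p = 7.64e-06) and was a further 0.37 lower in SNI + G15 (edgeR adjusted p = 0.00534), and Decr2 fell by 0.73 (edgeR adjusted p = 3.12e-05). Of 11 elongation genes, 5 fell and none rose in SNI (45.5% called), Elovl2 by 0.30 (edgeR adjusted p = 9.18e-05). Of 11 sulphatase genes, 3 rose and 4 fell (63.6% called), with Sulf1 up by 0.69 (edgeR adjusted p = 1.43e-05).

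**Figure D4:**
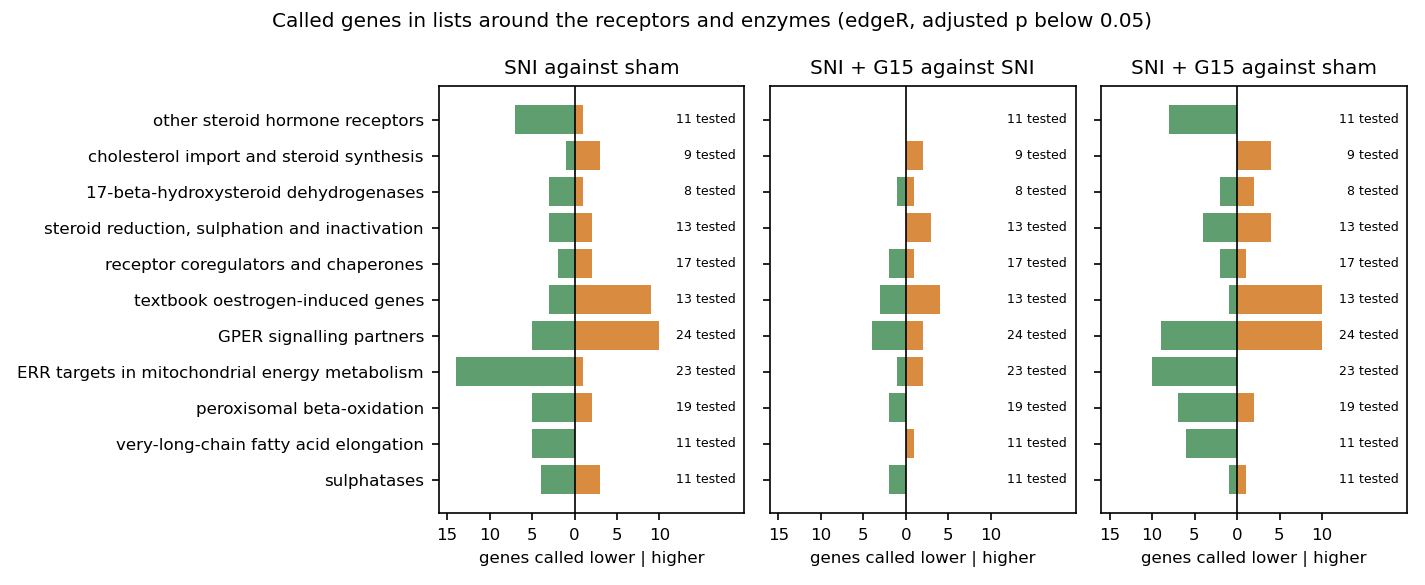
Number of genes called lower (left) or higher (right) at an adjusted p below 0.05 in each of 11 lists, in the 3 comparisons, with the number tested at the right edge. The target list of the oestrogen-related receptors has 14 of 23 lower in SNI against sham and 1 of 23, Vegfa, lower in SNI + G15 against SNI.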

How the data were processed

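The 9 libraries of DRG RNA were paired-end RNA-Seq. For each gene and transcript the authors deposited FPKM, normalised for library size and length, a gene's FPKM being the sum over its transcripts, and estimated counts per gene and transcript, which are not normalised and need not be whole. The aligner is not given in the sources used here, and the submitters' processing notes name GRCm38 and mm10, which are mouse builds, so no coordinates of deposited values are given. Columns named as control were assigned to sham because the remaining columns name SNI and SNI_G15. Deposited TPM, 9 columns in each table, and the authors' own comparisons were not used. Of 20194 gene IDs, 18599 matched RefSeq.

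Estimated counts were rounded, scaled by TMM and tested with edgeR 4.0.16 (quasi-likelihood test, Benjamini-Hochberg) in R 4.3.3, using the libraries of the 2 groups compared and genes with FPKM of at least 1 in at least 1 library; the genes below that were tested among all genes with at least 1 count. Intervals are 95%. The fitting was tested on simulated data. Alternatives used DESeq2 1.42.0, limma 3.58.1 on log2(FPKM + 1) or log2(FPKM + 0.1), other scalings and filters, a joint fit, the replicate number as a block and leaving out replicates one at a time. The members and the gene lists were chosen with earlier results of these data known. Named are the 9 genes, from each list the 3 called genes with the smallest adjusted p per comparison and direction or a selection of them, Actb, Atf3 and Gal, and the 2 genes most like each member in log2 CPM with a prior count of 2. Exceptions are stated, and not every gene this rule selects is reported here.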

Additional observations from a re-analysis of the deposited data

How the results depend on the processing

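The numbers of genes called against sham changed by less than 1.5-fold in all 15 alternatives, with a range of 5343 to 6749 for SNI and of 5101 to 6880 for SNI + G15. In SNI + G15 against SNI, 2179 genes were called, 893 to 2333 with one replicate left out (1098, 925 and 893 without SNI replicate 1, 2 and 3; without an SNI + G15 replicate the number stayed within 1.5-fold; the cause was not tested); 1 or 2 of the 9 genes were then called. Esr1 was the gene lost, and 1 of the 9 was also called with DESeq2 and limma at a pseudocount of 0.1 (adjusted p of Esr1 0.0842). The replicate numbers do not pair the samples (correlations of deviations -0.125 to 0.0923); with the replicate number as a block, 1292 genes and 1 of the 9 were called, Esr1 having an adjusted p of 0.0532 and Hsd17b4 in SNI + G15 against sham 0.0601.

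The direction changed only for genes not called. In SNI against sham, Gper1 gave log2 differences of 0.0028 and 0.0143 with limma at pseudocounts 1 and 0.1, and -0.279 to 0.0664 with one replicate left out, as did Sts (-0.0262 to 0.12) and Srd5a1 (-0.14 to 0.0242). In SNI + G15 against SNI, Sts was -0.0011 without scaling factors and -0.0031 and -0.0036 with limma, and -0.0597 to 0.0581 with one replicate left out, where Gper1 gave -0.0325 to 0.251, Esr2 -0.814 to 0.412, Hsd17b12 -0.0524 to 0.0194 and Srd5a1 -0.116 to 0.0461. In SNI + G15 against sham, Gper1 was 0.0027 with DESeq2, 0.0028 with its size factors, 0.0415 without factors, 0.0418 and 0.105 with limma, 0.0094 with the block and -0.206 to 0.141 with one replicate left out, where Sts gave -0.0389 to 0.108. For the named list genes, 131 calls gave 1952 values under the alternatives, of which 211 lost the call, none changed direction, and 41 of the 131 calls were lost at least once. Depth limits Gper1, Esr1 and Esr2, at 0 to 89 reads a library.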
